A study of Mus musculus with 132 samples.

Results

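The distal CTCF sites described here were those with an ATAC-seq peak in CD41+ hematopoietic progenitor cells (HPCs) and none in Flk1+ mesoderm. CTCF peaks of the mouse myeloid progenitor line 416B were kept where their midpoint lay over 2 kb from every gene start, where they shared at least 1 bp with a peak of the HPC list and where they shared none with the mesoderm list. This gave 673 sites of 44513 CTCF peaks in all, which is 1.68% (95% Wilson interval 1.56 to 1.81%) of the 40048 distal ones. CTCF is a zinc finger protein that binds a long motif in a fixed orientation and stops the cohesin complex as it extrudes chromatin loops, so that bound sites often lie at the borders of topologically associating domains (TADs). ATAC-seq marks DNA that a transposase can reach, and a bound CTCF protein usually leaves a small open stretch between ordered nucleosomes. Most CTCF sites are shared between cell types, and a minority is occupied or open in one lineage only.

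Mouse embryonic stem cells (mESC, the male line E14-TG2a of strain 129/Ola) were differentiated in culture to mesoderm at day 4 and to HPCs at day 7, and cells were sorted by flow cytometry. The ATAC-seq lists were each 1 merged call, from 4 wild-type mesoderm libraries (2 biological replicates, each sequenced as technical replicates) and from 2 wild-type HPC libraries that were technical replicates of a single biological sample, so that no replicate error could be given for a site. According to the methods of the study these cells carried a Venus reporter at Runx1 and an hsp68-mCherry transgene driven by the Runx1 +23 enhancer, whereas the labels name E14-TG2a. The CTCF list came from 2 merged libraries of the female (C57BL/6xDBA/2)F1 line 416B, so CTCF binding and accessibility were measured in different cells, sexes and strains, and binding in mesoderm or in the HPCs of the culture was not measured. Poly(A)-minus RNA-seq, which enriches for unspliced and nascent transcripts, was made from 2 wild-type undifferentiated mESC libraries (technical replicates of 1 culture), from mesoderm of 3 wild-type clones (C8.1, B9.3, C6.1) and from 4 HPC libraries, of which clone B9.3 gave 2. The same stages were sequenced from clones in which CRISPR-Cas9 had removed the CTCF site beside a Runx1 promoter. P1-CTCF-KO cells lacked the site near the distal promoter (3 mesoderm and 3 HPC libraries of clones E7.1, E7.2 and E9.1), and P2-CTCF-KO cells lacked that near the proximal promoter (3 mesoderm and 5 HPC libraries of clones D2.1, D10.1 and E9.1). The clones were isolated as single colonies, and the study describes them as sub-clones of a few separate targeting events, so some may share an origin.

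Wild-type RNA-seq libraries held 18233679 to 21634629 counts in mesoderm and 8293575 to 10733304 in HPCs. Ribosomal and multi-locus entries took 89.1 to 91% of mesoderm and 87.8 to 89.1% of HPC counts, which left 1955010 to 2134615 counts in mesoderm and 900145 to 1302151 in HPCs for all other genes. The stage labels held in every wild-type library. Kdr, which encodes the sorted Flk1 antigen, stood at 22.7 to 51.1 CPM (counts scaled to a library of 1000000) in mesoderm and at 3.72 to 15 CPM in HPCs. Itga2b, which encodes CD41, stood at 0.655 to 1.61 CPM in mesoderm and at 25 to 55.1 CPM in HPCs. The pluripotency gene Pou5f1 was at 6.65 and 7.72 CPM in the mESC libraries and at 0 to 0.404 CPM afterwards. Of the endothelial list, 18 of 26 genes were tested, and 10 fell and 0 rose from mesoderm to HPCs. Of the list of early and other mesoderm genes, 9 of 23 were tested and 8 fell. These falls came at the same step as the gene results below, and the part of cell makeup in those results was not tested. In these bulk libraries fewer cells of a type and less RNA per cell cannot be told apart.

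Sequences of sites beside blood genes show what was bound and open. Each stretch printed is the part shared by the CTCF peak and the HPC ATAC-seq peak, on the plus strand of mm9, with matches in capitals to the CTCF core, searched on both strands as CC, any 3 bases, AG, any 2 bases and GGC. The first 4 lie within 100 kb of a gene of the blood lists and hold a core match.
Nfe2 site, chr15:103154567-103154633: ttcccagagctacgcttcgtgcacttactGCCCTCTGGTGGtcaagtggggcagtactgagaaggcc
Cbfb site, chr8:107662395-107662484: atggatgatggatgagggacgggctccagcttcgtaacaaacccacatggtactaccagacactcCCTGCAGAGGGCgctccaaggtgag
Alas2 site, chrX:146912541-146912607: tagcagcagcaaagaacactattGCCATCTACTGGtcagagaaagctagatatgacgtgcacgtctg
Cd47 site, chr16:49766546-49766629: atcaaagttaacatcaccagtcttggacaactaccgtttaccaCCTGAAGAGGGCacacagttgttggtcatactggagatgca
The core matches of the Nfe2 and Alas2 sites were on the minus strand, and those of the Cbfb and Cd47 sites on the plus strand. Of the other sites beside blood genes, that near Selp held a core match and all the rest held none in the shared stretch. Those near Plek and Dock2 are given for comparison.
Plek site, chr11:16867956-16868076: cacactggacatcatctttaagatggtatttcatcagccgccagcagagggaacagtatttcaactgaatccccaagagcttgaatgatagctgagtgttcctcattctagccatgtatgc
Dock2 site, chr11:34682262-34682328: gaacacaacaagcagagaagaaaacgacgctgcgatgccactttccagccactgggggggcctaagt

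Across all 673 sites the CTCF core stood in 322 windows of 300 bp at the CTCF midpoint, or 47.8% (44.1 to 51.6%). The share was 46.8% at sites open in both stages, 50.6% at sites open in mesoderm only, 55.3% at sites without an ATAC-seq peak and 53.5% at all distal CTCF peaks. Width of the CTCF peak went with the share. The core stood in 55.2% (223 of 404) of the sites whose CTCF peak was wider than the list median and in 36.8% (99 of 269) of the narrower ones. In the 300 windows with exactly 1 core, its centre lay a median of 15 bp from the middle of the HPC ATAC-seq peak, and in 82.3% it lay within 50 bp. The orientation was balanced, with 51% (45.4 to 56.6%) on the plus strand. A CG dinucleotide, which can carry DNA methylation, stood inside the core match of 8.07% (26 of 322) of the sites with a core, against 10.2% at sites open in both stages and 3.65% at sites without a peak.

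A short word found in a repeat family differed in share between the classes. B2 elements are short interspersed repeats of rodent genomes, many of which carry a CTCF site, and the word CAGAAGAGG is part of that site. This word was chosen after sequences of the sites had been read, and no repeat annotation was used, so its matches were not checked against B2 elements. It can lie inside a core match. It stood in 75 of 673 sites open in HPCs only, or 11.1% (9.0 to 13.7%), in 4.64% (4.01 to 5.37%) of those open in both stages, in 6.57% (6.04 to 7.14%) of those open in mesoderm only, in 27% (26.5 to 27.5%) of those without an ATAC-seq peak and in 20.7% of all distal CTCF peaks. The interval of the sites open in HPCs only overlapped none of the other 3. Among windows with a core, the word stood in 15.8% (51 of 322), against 5.96% in both stages and 40.6% without a peak. The following examples, near Mycl, Pde4dip and Trabd2b, are shown for the word, which lies in the capitals of the first pair (on the minus strand in the first) and has no core match around it in the last.
Mycl site, chr4:122665421-122665487: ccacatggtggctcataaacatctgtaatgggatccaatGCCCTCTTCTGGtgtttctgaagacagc
Pde4dip site, chr3:97698780-97698846: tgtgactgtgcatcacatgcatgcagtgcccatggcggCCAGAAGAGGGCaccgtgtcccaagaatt
Trabd2b site, chr4:114070380-114070469: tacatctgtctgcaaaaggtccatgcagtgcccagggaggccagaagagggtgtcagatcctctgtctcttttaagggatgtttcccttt

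Motifs of blood transcription factors stood at shares near those of the sites open in both stages. AGATAA, bound by GATA factors, stood in 15.8% (13.2 to 18.7%) of the windows, against 14% at sites open in both stages. TGTGGT, bound by RUNX factors, stood in 26.0% (22.8 to 29.4%), against 22.6% in both stages, 23.5% in mesoderm only and 28.4% at sites without a peak. GAGGAA, bound by PU.1 and other ETS factors, stood in 25.7% (22.5 to 29.1%), against 26.7% in both stages and 20.1% without a peak. TGANTCA, bound by AP-1, stood in 9.06% (7.12 to 11.5%), against 9.04% in both stages. All 4 motifs were searched on both strands, and the intervals of the sites open in HPCs only held the shares of the sites open in both stages for GATA, ETS and AP-1 motifs and lay just above that of the RUNX motif. The windows were a little poorer in G and C than those of the other open classes, with a median of 45% against 47.3% in both stages. These shares are compared with each other in the plot of motif matches by class.

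**Figure D1:**
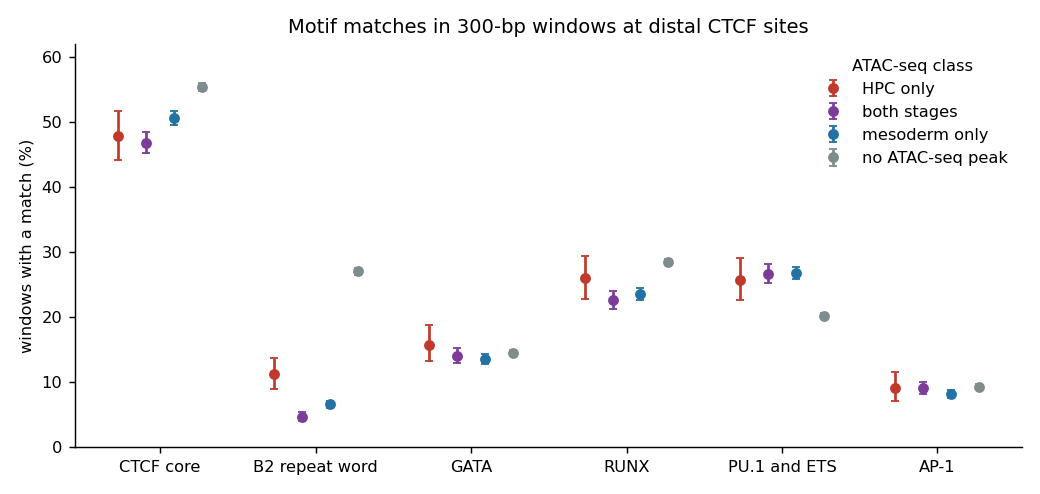
Share of 300-bp windows at distal CTCF sites (y axis, percent) with at least 1 match to each motif (x axis), by ATAC-seq class. Points are shares and bars are 95% Wilson intervals, which cover counting error only. The B2 repeat word stood in 11.1% of the sites open in HPCs only, between 4.64% in both stages and 27% without a peak, whereas GATA, RUNX, ETS and AP-1 motifs of the sites open in HPCs only stood close to those open in both stages.

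The sites had small ATAC-seq peaks. Their HPC peak had a median width of 74 bp (quartiles 67 and 94 bp, widest 350 bp), against 96 bp at sites open in both stages. Sites open in mesoderm only also had narrower mesoderm peaks, with a median of 94 bp against 131 bp at sites open in both stages. At 261 sites, or 38.8% (35.2 to 42.5%), the peak had the smallest width of its list, 67 bp, against 17.2% in both stages and 16.4% of all HPC peaks. Only 14.1% (95 of 673) had a peak wider than the list median, against 35.7% in both stages. CTCF peaks of the 673 sites had a median width of 260 bp, against 273 bp in both stages, 271 bp in mesoderm only and 228 bp without an ATAC-seq peak. Width is the only measure of strength that the lists hold, and the mesoderm list, made from more libraries, had 76766 peaks against 29037 in HPCs. How far detection near the threshold set the membership was not tested. The core motif did not follow the width of the HPC peak. It stood in 49.8% of the sites with the smallest peak, in 45.1% of those between it and the list median and in 51.6% of the wider ones.

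Seen from the HPC list, distal peaks at CTCF sites were seldom without a mesoderm peak. Of 4427 distal HPC peaks with a CTCF peak, 691 lacked one, or 15.6% (14.6 to 16.7%), whereas 7222 of 14060 without CTCF did, or 51.4% (50.5 to 52.2%). CTCF therefore marked 8.73% of the distal HPC peaks without a mesoderm peak and 35.3% of those with one. The nearest mesoderm peak lay a median of 7125 bp from the CTCF peak of the 673 sites (quartiles 2518 and 17666 bp). In 48 sites it lay within 500 bp, in 11 within 100 bp and in the closest at 2 bp, so that these stood just inside the limit. At the other limits, 8 sites shared under 20 bp with the HPC peak (smallest 2 bp, median 71 bp). The sites nearest to a gene start were 2078 bp from Card6, 2158.5 bp from Tapt1 and 2176 bp from 4930567J20Rik, and those just left out were 1917.5 bp from Bcl2l15, 1851.5 bp from Kcnk9 and 1844.5 bp from Ltc4s.

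**Figure D2:**
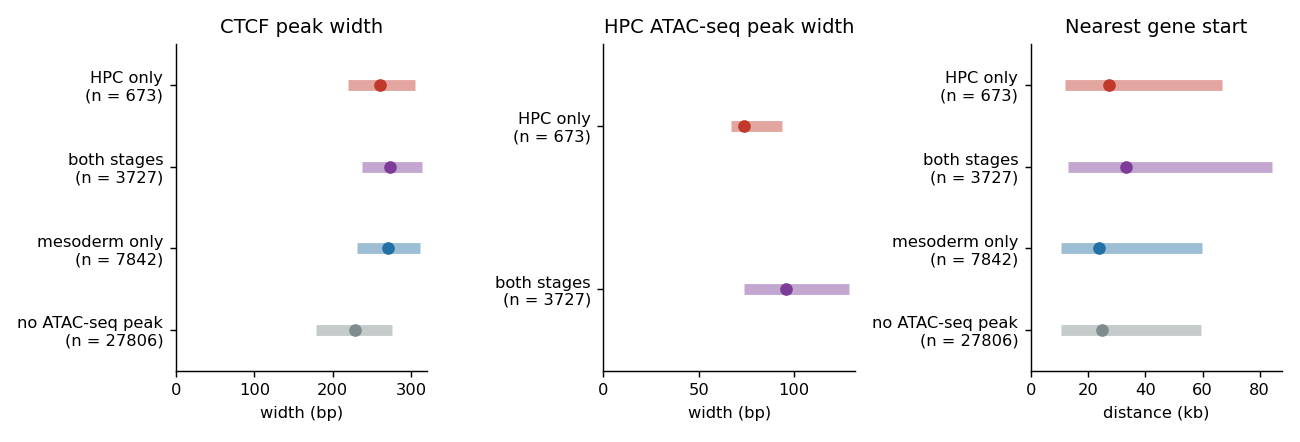
Width of the CTCF peak (bp), width of the HPC ATAC-seq peak (bp) and distance to the nearest gene start (kb) for distal CTCF sites by ATAC-seq class, with the number of sites. Points are medians and bars run from the lower to the upper quartile. HPC peaks of the sites open in HPCs only had a median of 74 bp, against 96 bp in both stages, and their distances of 27.2 kb lay between those of the other open classes.

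The 673 sites lay a median of 27181 bp from the nearest gene start (quartiles 11797 and 66787.5 bp), nearer than the 33320 bp of sites open in both stages and farther than the 23794 bp of sites open in mesoderm only. By the GENCODE vM1 annotation, 43.4% (292) lay in introns, 4.31% (29) in exons and 52.3% (352) between genes, against 39.0%, 4.94% and 56.1% in both stages. They were scattered, with another such site within 10 kb for 18 of them and within 100 kb for 83. They made up 1.14% of the distal CTCF sites of chromosome 17 at the lowest and 2.32% of those of chromosome 3 at the highest. The X chromosome held 19. At Runx1, the gene on which the study turns, none of the sites was found. The Runx1 TAD held 30 CTCF peaks, of which 3 distal ones were open in both stages, 5 in mesoderm only and 21 in neither, and 1 lay near a gene start. Gene starts were the outermost of each gene, so inner promoters such as the proximal one of Runx1 were not gene starts here. The nearest of the 673 sites, chr16:91964758-91965100, lay 861390.5 bp from the Runx1 start and had Atp5o as its nearest gene. Runx1 itself stood at 5.41, 17.0 and 20.8 CPM in mesoderm and at 125, 101, 117 and 182 CPM in HPCs, and rose by 3.19 ± 0.43 on the log2 scale (SE, adjusted p = 0.000256, edgeR).

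To ask whether genes beside the sites changed with the stage at which the sites opened, each site was joined to the nearest gene start. The 673 sites named 644 genes, of which 358 passed the filter on low counts. From mesoderm to HPCs, 50 rose (14%) and 50 fell (14%) at an adjusted p under 0.05 and a log2 fold change beyond 1 (edgeR quasi-likelihood test, Benjamini-Hochberg adjustment). Over all 12899 genes tested, 3007 were called (23.3%), of which 10.8% of genes rose and 12.5% fell. The median log2 fold change of the nearest genes was 0.09, against -0.01 over all genes. The same counts at other classes were 13.5% higher and 15% lower beside sites open in both stages, 12.4% and 15.3% in mesoderm only, and 12.3% and 13.7% without an ATAC-seq peak. The share of risen genes beside sites open in HPCs only thus stood close to that beside sites open in both stages, and all 4 classes had larger shares than all genes. With the clone as a block, fewer genes passed the filter (237), of which 41 rose and 33 fell, or 17.3% and 13.9%, against 12.3% and 12.5% over all genes in that fit.

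The shares differed with the window and the distance. Within 100 kb of the sites lay 1690 gene starts, of which 927 were tested, and 125 rose (13.5%) and 102 fell (11%). With the clone as a block 60 fell, in a fit that tested only 7343 genes in all, against 12899 without the block. Among nearest genes with a site at 2 to 10 kb, 11 of 80 rose (13.8%) and 7 fell (8.75%), with a median log2 fold change of 0.19. At 10 to 50 kb 23 of 168 rose (13.7%) and 22 fell (13.1%), and beyond 50 kb 18 of 117 rose (15.4%) and 23 fell (19.7%), with a median of -0.0069. The difference between the distances was not tested. Genes nearest to a site with the CTCF core rose in 20 of 172 and fell in 24, and those nearest to a site without it rose in 31 of 193 and fell in 28. In the earlier step from undifferentiated mESC to mesoderm, 51 of the 358 genes rose (14.2%) and 52 fell (14.5%), against 10.7% and 13.7% over all genes (24.4% called). That step rests on technical replicates of 1 mESC culture, and the methods name ribosomal depletion for the mESC samples but not for the later stages, whereas the labels list it for all RNA-seq samples together. Without the first of the mESC libraries 24 rose and 18 fell, and without the other 16 rose and 19 fell.

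The same step in the Runx1 CTCF deletion clones was then compared. In P1-CTCF-KO clones 247 of the nearest genes were tested, and 63 rose (25.5%) and 41 fell (16.6%), against 17.5% and 18.1% over 7973 genes (35.6% called). Beside sites open in both stages 22.7% rose and 19.4% fell. The shares were 20.5% and 21.1% beside sites open in mesoderm only, and 19.8% and 18.4% beside sites without an ATAC-seq peak. In P2-CTCF-KO clones 258 were tested, and 51 rose (19.8%) and 19 fell (7.36%), against 14.5% and 10% over 7993 genes (24.5% called). Beside sites open in both stages 18.9% rose and 8.91% fell in these clones. The shares were 16.8% and 11.6% beside sites open in mesoderm only, and 16.6% and 9.38% beside sites without an ATAC-seq peak. Risen shares above those of all genes were thus found beside sites of every class in both deletions. The count of fallen genes in P2-CTCF-KO clones was 8 (2.96%) without the mesoderm library of E9.1, against 4.9% over all genes. It was 33 (13.6%) without the first HPC library of D2.1, against 13.9%, and 10 (3.88%) with the clone as a block, against 8.6%. That of risen genes moved to 32 (11.7%, against 8.9%) without mesoderm D2.1 and to 25 (9.26%, against 7.73%) without mesoderm E9.1. Whether the step differed between deletion and wild-type clones was tested for 287 of the nearest genes. Of these, 0 passed an adjusted p under 0.05 in either deletion, which does not show that the steps were alike, and 10 (P1-CTCF-KO) and 23 (P2-CTCF-KO) had an unadjusted p under 0.05 (edgeR). Over all 9170 genes of that fit, 0 and 2 passed (0% and 0.0218%), and 306 and 643 had an unadjusted p under 0.05 (edgeR).

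**Figure D3:**
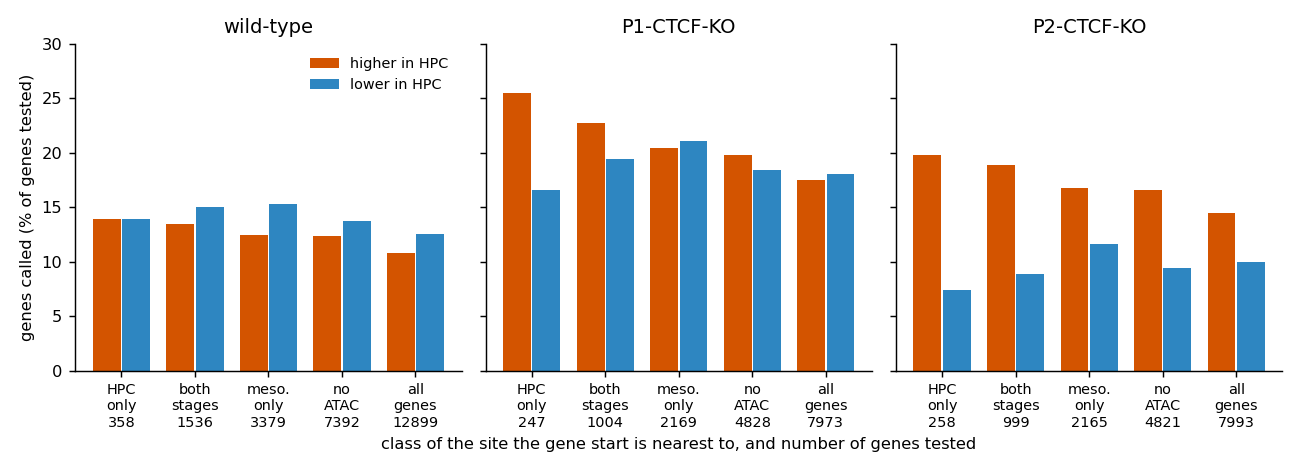
Share of tested genes called higher (orange) or lower (blue) in HPCs than in mesoderm (y axis, percent), for genes nearest to distal CTCF sites of each ATAC-seq class and for all tested genes, in each genotype. Numbers under the bars are genes tested. Beside sites open in HPCs only, 14% rose and 14% fell in wild-type cells, 25.5% and 16.6% in P1-CTCF-KO and 19.8% and 7.36% in P2-CTCF-KO. Beside sites open in both stages, in the same order, the shares were 13.5% and 15%, 22.7% and 19.4%, and 18.9% and 8.91%.

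Of 184 genes in 8 lists of blood, endothelial, mesoderm and cohesin genes, 16 had a site open in HPCs only within 100 kb of their start, or 8.70%, against 6.77% (1690 of 24961) of all genes with a single locus. The 5 blood lists held 11 of these among 118 genes (9.32%). Of these 11, 10 were tested, and 8 rose and 2 fell. Over the whole 5 lists, 97 genes were tested and 74 rose and 5 fell, and the share of the lists beside a site was not tested against the rest. Most list genes lay near CTCF sites of other classes. Within 100 kb, 68 of 184 had a site open in both stages, against 7382 of the 24961 genes. For sites open in mesoderm only the counts were 122 against 15038, and for sites without an ATAC-seq peak 170 against 21362. In each of these classes, too, the share among list genes was larger than that among all genes.

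Among hematopoietic transcription factors 3 of 34 had a site, and 1 rose and 2 fell. Nfe2, the blood subunit of the NF-E2 factor that drives globin and platelet genes, had 2 sites, one 65.8 kb upstream in an intron and one 81.1 kb downstream between genes, whose nearest gene starts were those of Gpr84 and Smug1. It stood at 0, 0 and 0.404 CPM in mesoderm (clones B9.3, C6.1, C8.1 in this order, as below) and, in the order B9.3, B9.3-2, C6.1 and C8.1, at 4.98, 4.14, 3.85 and 5.49 CPM in HPCs, and rose by 4.84 ± 0.64 (log2, SE, adjusted p = 0.000256, edgeR). Without mesoderm C8.1 the fitted change was 10.26. Cbfb, the partner that strengthens DNA binding of RUNX proteins, had its site 32.1 kb upstream, in an intron. It stood at 11.2, 9 and 8.88 CPM in mesoderm and at 4.40, 2.59, 3.59 and 5.49 CPM in HPCs, without overlap, and fell by 1.26 ± 0.25 (adjusted p = 0.00299, edgeR). Mecom, a zinc finger factor of hematopoietic stem cells, was itself the nearest gene of a site 40.6 kb upstream. It stood at 37.9, 1.96 and 9.61 CPM in mesoderm and at 0.810, 2.76, 0 and 0.112 CPM in HPCs. These groups overlapped. It fell by 4.36 ± 0.98 (log2, adjusted p = 0.00658, edgeR), and without the mesoderm library of B9.3 it fell by 2.93.

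Of the receptors and surface markers 1 of 17 had a site. Cd47, which encodes the ligand that restrains phagocytes, had it 89.2 kb upstream in an intron nearest to the start of Ift57. Its level was 3.53, 2.13 and 3.15 CPM in mesoderm and 35.5, 27.2, 23.0 and 54.5 CPM in HPCs, and it rose by 3.55 ± 0.38 (adjusted p = 6.21e-05, edgeR).

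Both of the 19 erythroid genes with a site rose. Alas2, the first enzyme of heme synthesis in red cells, had its site 69.3 kb upstream between genes, nearest to the start of Tmem29. It held 1 read over the 3 mesoderm libraries and 375 reads in HPCs (8.1, 20.2, 10.5 and 12.2 CPM), a ratio of 379 with a 95% counting interval of 67.7 to 15025. Its adjusted p was 2.87e-05 (edgeR). Rhag, a membrane glycoprotein of the Rh complex, had its site 86.0 kb downstream. It was at 0 in every mesoderm library and at 0.579, 2.07, 2.52 and 1.46 CPM in HPCs. The HPC mean was at least 5.13-fold above the mesoderm floor of 3 counts per library (adjusted p = 0.00227, edgeR).

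Of 20 megakaryocyte and platelet genes 3 had a site. Plek, which encodes pleckstrin, the kinase C substrate of platelets, stood at 0.784, 0 and 0 CPM in mesoderm and at 122, 50.7, 62.2 and 123 CPM in HPCs. It rose by 8.15 ± 0.78 (adjusted p = 3.48e-05, edgeR), and its site lay 40.7 kb downstream. The fitted change was 14.52 without mesoderm B9.3, the single mesoderm library with reads. Gp9, a subunit of the platelet receptor for von Willebrand factor, had its site 28.2 kb downstream in an intron. It was at 0 in every mesoderm library and at 1.39, 0.172, 0.266 and 1.46 CPM in HPCs. The HPC mean was at least 2.54-fold above the mesoderm floor (adjusted p = 0.0152, edgeR). The HPC libraries at 0.172 and 0.266 CPM lay below that floor of 0.323 CPM. Selp, which encodes P-selectin, had 0 reads in every mesoderm and HPC library and was not tested.

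Both myeloid and pan-leukocyte genes with a site rose, of 28 in the list. Plcg2, a phospholipase of immune receptor signalling, had its site 32.8 kb upstream between genes. It stood at 4.79 and 5.50 CPM in mESC, at 1.96, 1.64 and 0.565 CPM in mesoderm and at 23.8, 15.3, 18.2 and 37.7 CPM in HPCs, and rose by 4.13 ± 0.44 (adjusted p = 5.94e-05, edgeR). Dock2, an activator of the GTPase Rac in leukocytes, had its site 84.9 kb upstream. Its level was 0.235, 0 and 0.161 CPM in mesoderm and 6.83, 4.65, 4.65 and 8.30 CPM in HPCs, and it rose by 5.25 ± 0.55 (adjusted p = 5.29e-05, edgeR).

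Genes of the other lists moved the other way or did not pass the test. Sox7, an endothelial SoxF factor with a site 75.8 kb upstream in an intron, stood at 5.80, 1.47 and 1.94 CPM in mesoderm. It was at 0 in every HPC library, and its mesoderm mean was at least 7.68-fold above the HPC floor of 3 counts per library (adjusted p = 0.00108, edgeR). Hey1, a target of Notch signalling, had the closest site of the 16 genes, 2364.5 bp downstream of its start in an exon. It held 25 reads in mesoderm, of which clone C6.1 gave 0, and 2 in HPCs, a ratio of 12.4 (3.08 to 108). Its adjusted p was 0.0374 (edgeR) and missed the threshold with DESeq2 and without HPC B9.3, B9.3-2 or C6.1. Tek, the angiopoietin receptor, stood at 28.2, 0.819 and 2.99 CPM in mesoderm and at 8.1, 3.28, 2.52 and 2.80 CPM in HPCs, with overlap and an adjusted p of 0.242 (edgeR). Hand1, a factor of lateral and extraembryonic mesoderm with a site 53.5 kb downstream, stood at 3.06, 12.9 and 9.45 CPM in mesoderm and at 1.85, 0, 0 and 0 CPM in HPCs, and fell by 4.03 ± 0.87 (adjusted p = 0.00505, edgeR). It missed the threshold with DESeq2, and without HPC B9.3 it fell by 11.11 in the fit. Smc1b, the meiotic form of a cohesin subunit and the single cohesin gene with a site, had 1 read over the mesoderm libraries and 0 in HPCs (adjusted p = 0.421, edgeR).

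**Figure D4:**
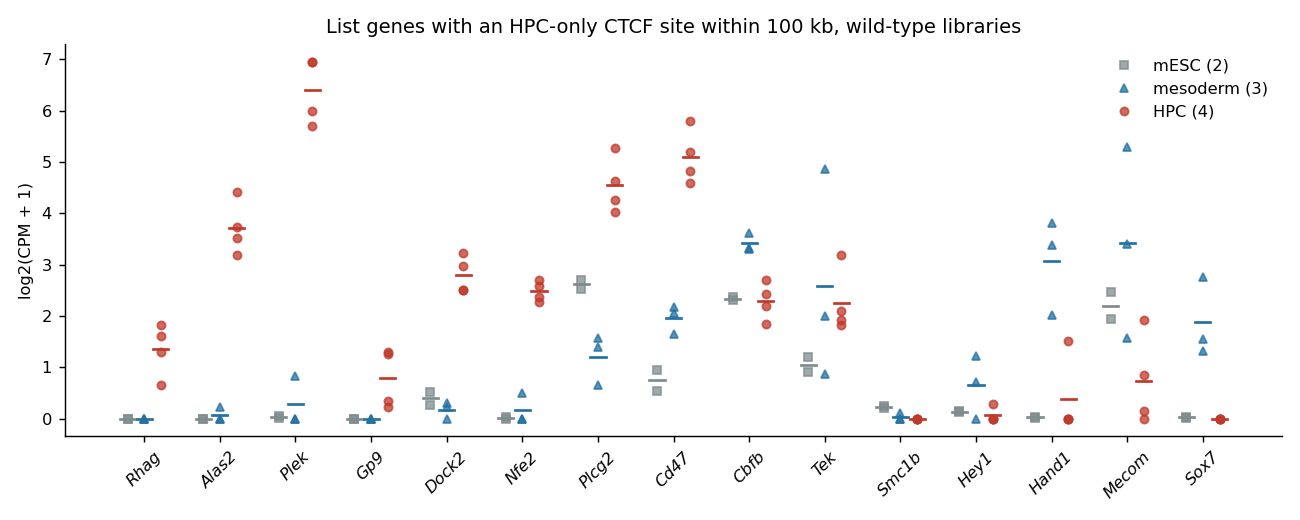
Level on the log2(CPM + 1) scale (y axis) of the 15 tested list genes with a site within 100 kb (x axis, ordered by log2 fold change), in each wild-type library. Points are libraries (2 mESC, 3 mesoderm, 4 HPC) and lines are means. The 8 genes at the left, from Rhag to Cd47, had all HPC libraries above all mesoderm libraries, and mesoderm values of Mecom and Tek spread widely between clones. Libraries of the 2 stages did not overlap, in either direction, for 32.9% of all tested genes. For Gp9 the gap rested on 1 read in HPC B9.3-2 and 2 reads in HPC C6.1, against 0 in mesoderm.

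Of the 13 list genes called in wild type, 9 were tested in P1-CTCF-KO clones, and all 9 passed in the same direction. In P2-CTCF-KO clones 10 were tested and 8 passed in the same direction, with Cbfb at -1.22 ± 0.49 (adjusted p = 0.0913, edgeR) and Mecom of the opposite sign. How often all genes called in wild type passed in the same direction was not counted. These counts therefore do not set genes beside the sites apart from other genes. In P1-CTCF-KO clones Plek stood at 0 to 0.0945 CPM in mesoderm and at 51.7 to 101 CPM in HPCs. In P2-CTCF-KO clones it stood at 0 to 0.0793 and at 12.1 to 104 CPM. Cd47 rose by 3.76 ± 0.25 (adjusted p = 7.12e-06, edgeR) in P1-CTCF-KO and by 3.71 ± 0.66 (adjusted p = 0.00417, edgeR) in P2-CTCF-KO, and Dock2 by 5.49 ± 0.64 (adjusted p = 0.000111, edgeR) and 5.95 ± 0.93 (adjusted p = 0.0025, edgeR). Mecom stood at 0.127 to 0.663 CPM in P2-CTCF-KO mesoderm and at 0.237 to 9.36 CPM in HPCs, a change of 2.71 ± 1.17 that did not pass the test (adjusted p = 0.108, edgeR). Tek stood at 0 to 0.181 CPM and at 0.932 to 11.9 CPM and rose by 5.25 ± 1.31 (adjusted p = 0.017, edgeR). Their step differed from that of wild-type clones by 7.11 ± 1.70 for Mecom (adjusted p = 0.282, edgeR) and by 6.72 ± 1.76 for Tek (adjusted p = 0.294, edgeR), which did not pass the test over all genes.

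**Figure D5:**
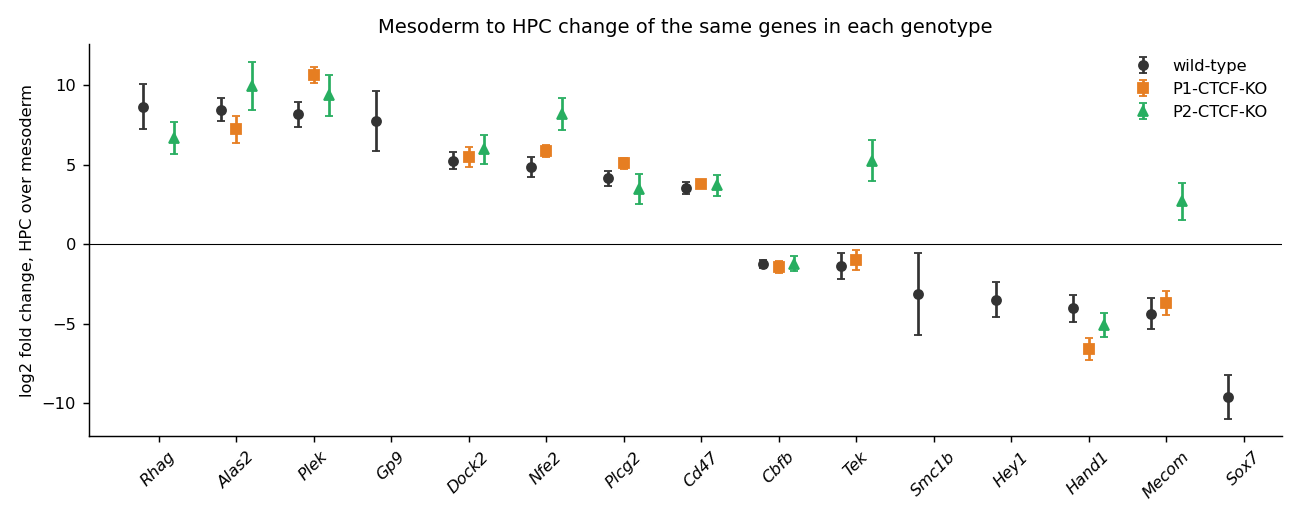
Log2 fold change from mesoderm to HPCs (y axis) of the same genes (x axis) in wild-type cells and in clones of either deletion. Bars are approximate standard errors, derived from the test statistic of each fit. Points are missing where a gene was filtered out, and fitted changes of genes at 0 in a stage (Rhag, Gp9, Sox7 and Smc1b in wild type, Rhag, Nfe2 and Alas2 in P2-CTCF-KO) depend on the prior count. Mecom and Tek lay above 0 in P2-CTCF-KO clones at 2.71 and 5.25 and below 0 in wild-type clones.

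The genes with the most sites were not blood genes of the lists. Trabd2b, which encodes a metalloprotease that cleaves Wnt ligands, was nearest to 3 sites 8.9, 98 and 106.2 kb upstream, and stood at 1.57, 1.31 and 3.63 CPM in mesoderm and at 2.78, 1.03, 1.86 and 2.47 CPM in HPCs (adjusted p = 0.897, edgeR). Chl1, a neural cell adhesion gene, was nearest to 3 sites 204.0 to 235.2 kb upstream and held 0 to 3 reads in each mesoderm and HPC library, too few to test. Another 25 genes had 2 sites each, of which the 8 with the shortest distance to a site follow. Cmah, the enzyme that makes the sialic acid Neu5Gc, held 3 reads over the mesoderm libraries and 278 in HPCs, with a ratio of 93.8 (31.8 to 457) and an adjusted p of 0.000132 (edgeR). Cep112, a centrosome gene, fell by 1.84 ± 0.36 (adjusted p = 0.0029, edgeR). Pde4dip, a gene of the Golgi and centrosome, stood at 1.96, 13.3 and 16.5 CPM in mesoderm and at 3.82, 1.21, 1.46 and 0.561 CPM in HPCs, and fell by 2.55 ± 0.66 (adjusted p = 0.0139, edgeR), which missed the threshold without mesoderm C8.1 and with the clone as a block. Mycl, a member of the Myc family, held 13 reads in mesoderm and 1 in HPCs, a ratio of 12.8 (1.93 to 546). Its adjusted p was 0.042 (edgeR), and 5 of 7 libraries left out in turn ended the call. Cep162 (adjusted p = 0.807), Cwc27 (0.081) and F3, which encodes tissue factor (0.497, all edgeR), did not pass, and 2210010C04Rik had no reads.

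Among nearest genes whose libraries did not overlap between the stages, as was so for 32.9% of all tested genes, the 5 with the smallest adjusted p in each direction were as follows. Adgrg1, an adhesion receptor of hematopoietic stem cells, had a site 8.0 kb downstream in its intron, and stood at 0.862, 0.327 and 0.565 CPM in mesoderm and at 24.2, 21.4, 23.5 and 26.3 CPM in HPCs. It rose by 5.24 ± 0.29 (adjusted p = 2.92e-06, edgeR). Mbp, which encodes myelin basic protein and has 2 sites in its introns, rose by 4.78 ± 0.34 (adjusted p = 1.23e-05, edgeR). Atp8a1, a phospholipid flippase with an intronic site, stood at 4.70, 5.08 and 4.44 CPM in mesoderm and at 71.2, 41.9, 69.4 and 97.5 CPM in HPCs, and rose by 3.89 ± 0.30 (adjusted p = 1.52e-05, edgeR). Dlg2, a synaptic scaffold gene with a site in its intron 510.7 kb from its start, stood at 0.392, 0.164 and 0.0807 CPM and at 76.6, 17.6, 35.6 and 84.9 CPM. Gse1 rose by 1.96 ± 0.19 (adjusted p = 4e-05, edgeR), with a site 21.4 kb downstream in an intron.

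Of these 10 genes, the site of Atp8a1 in an intron and that of Aplnr between genes are printed as examples without an exact core match, chosen after their sequences were seen. The closest sites of Adgrg1, Mbp, Dlg2 and Prkd1 held a core within their windows.
Atp8a1 site, chr5:68147526-68147597: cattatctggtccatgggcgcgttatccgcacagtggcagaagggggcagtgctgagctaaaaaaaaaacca
Aplnr site, chr2:84963491-84963572: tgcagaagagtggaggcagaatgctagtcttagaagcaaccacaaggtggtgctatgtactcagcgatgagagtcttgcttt
Aplnr, the receptor for apelin in early mesoderm and vessels, had its site 13 kb upstream. It held 268 reads in mesoderm (14, 6.22 and 4.2 CPM) and 3 in HPCs, a ratio of 88.3 (29.9 to 431, adjusted p = 0.000133, edgeR), and 0 in both mESC libraries. Tgif1, a repressor of TGF-beta signalling, held 80 reads in mesoderm and 1 in HPCs, a ratio of 79.1 (13.8 to 3162, adjusted p = 3.34e-05, edgeR). Its site lay 98.4 kb downstream in an exon, where the spans of Dlgap1 and Gm16952 overlap. Fignl2 fell by 4.13 ± 0.39 (adjusted p = 3.11e-05, edgeR). Prkd1, which encodes protein kinase D1, fell by 2.63 ± 0.32 (adjusted p = 0.000131, edgeR), and its site lay 356.2 kb away. Diaph2, a formin, stood at 31.5, 19.8 and 10.2 CPM in mesoderm and at 2.55, 1.38, 0.399 and 2.24 CPM in HPCs, and fell by 3.61 ± 0.48 (adjusted p = 0.000244, edgeR).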

How the data were processed

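Per the labels and the study's methods, the authors aligned reads to mm9 (STAR for RNA-seq, Bowtie2 for ATAC-seq and ChIP-seq) and counted RNA-seq reads with featureCounts over exons and introns. The deposited table holds raw counts for 25146 entries, with no normalization, in 23 libraries. The annotation and strand setting are not given in the sources used here, so overlapping genes and antisense partners cannot be told apart. Peaks were deposited as positions only, called with MACS2 (CTCF at a p-value under 0.02 against input, ATAC-seq at an adjusted p under 0.05 on inserts under 100 bp), with libraries merged per list. The lists hold no read depth, and the study's reporting summary gives one of the merged 416B CTCF libraries several times the reads of the other. Gene starts came from 24961 entries with 1 locus of up to 2.5 Mb. The outermost start of each entry was used, so inner promoters did not count as gene starts. Intervals cover counting error only.

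Counts of each genotype were filtered (edgeR filterByExpr, minimum count 10), scaled by TMM and tested with the quasi-likelihood test of edgeR 4.0.16, with Benjamini-Hochberg adjustment. CPM are counts scaled to a TMM-adjusted library size of 1000000, multi-locus entries included. Genes were called at an adjusted p under 0.05 and a log2 fold change beyond 1. Standard errors (SE) are approximate: the absolute log2 fold change was divided by the square root of the F statistic of the test. The difference of the step between genotypes was tested in 1 fit over all mesoderm and HPC libraries and was added after the data were seen. The script was tested on simulated data. Replicates were clones and repeat libraries of clones, some of which may share an origin, so p-values measure only the spread between these libraries. Same-named clones pair the stages, and their deviations from the group means correlated at 0.128, -0.143, 0.161 and -0.0629 in wild type, 0.0336 to 0.109 in P1-CTCF-KO and -0.127 to 0.189 in P2-CTCF-KO. Genes named were list genes with a site within 100 kb, the 10 genes nearest to most sites, the 5 with the smallest adjusted p in each direction whose libraries do not overlap, and Runx1. The members, lists and tests were chosen with earlier results of these data known. Alternatives covered overlap, distance, width, motif, normalization, filter, tool, left-out libraries, the clone block and summed HPC libraries.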

Additional observations from a re-analysis of the deposited data

Results flagged for a closer look

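Within groups of 4 or 5 HPC libraries, 11 of 60 tests of named genes on the log2(CPM + 1) scale had 1 library far from the others. Chance gives about 1 in 20. Any read stands out where the other libraries are at 0, as for 6 of the 11. Whether single libraries were outlying as a whole was not tested. In wild-type HPCs, 5 were of this kind, and F3, Mycl and Tgif1 rested on 1 read each. Hey1 and F3 had 0.224 and 0.112 CPM in C8.1 alone, and Hand1, Mycl and Tgif1 had 1.85, 0.116 and 0.116 CPM in B9.3 alone. In P2-CTCF-KO HPCs, the first library of D10.1 stood high for Cd47, at 32.8 CPM against 6.03 to 9.64 in the others, and for Dlg2, at 67.2 CPM against 2.20 to 6.70. The first library of D2.1 stood high for Pde4dip, at 4.57 CPM against 0.473 to 1.04, for Fignl2, at 1.11 CPM against 0.0762 to 0.260, and for Tgif1, at 0.761 CPM against 0. The library of E9.1 stood low for Cwc27, at 3.39 CPM against 5.97 to 6.78.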

How the results depend on the processing

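The number of sites was 669 with an overlap of 50% of the shorter interval and 702 and 618 with gene starts over 1 and 5 kb away. It was 404 with only the wider CTCF peaks and 96 with only the wider HPC ATAC-seq peaks. The share with the CTCF core was 10.3% with a stricter motif, CC, any 3 bases and AGGGGGC, 55.2% at wider CTCF peaks and 47.0% at the ATAC-seq midpoint. Among nearest genes in the wild-type step to HPCs, 26 rose and 28 fell at sites with wider CTCF peaks and 20 and 24 at sites with the core, where fewer genes were tested. With the clone as a replicate block, which pairs the stages, 33 nearest genes and 60 genes within 100 kb fell, and in P2-CTCF-KO 10 nearest genes fell. The wild-type fit with the block tested 7343 genes in all, against 12899 without it. Within 50 kb 64 rose and 60 fell, and within 200 kb 216 and 183. Without the filter on low counts the median log2 fold change of nearest genes was -0.34 in the step to mesoderm and -0.074 in P1-CTCF-KO, where 62 fell. Leaving out 1 library at a time gave 46 to 56 risen and 40 to 54 fallen nearest genes in wild type (median 0.04 to 0.11), 110 to 131 and 78 to 110 within 100 kb, 16 to 51 and 18 to 43 in the step to mesoderm (19 fell without the mESC library techRep2) (median -0.16 to -0.05), 55 to 65 and 35 to 48 in P1-CTCF-KO (median 0.03 to 0.24, the highest without mesoderm E7.2), and 25 to 57 and 8 to 33 in P2-CTCF-KO (32 rose and 12 fell without mesoderm D2.1, 9 fell without mesoderm D10.1) (median 0.27 to 0.38). Reversed were Tek without mesoderm B9.3 (1.004), Trabd2b without HPC B9.3-2 (0.083) and without mesoderm C8.1 (0.51), and Cep162 with the replicate block (-0.020), none of which was called. Of the values of named genes under the alternatives, 373 kept their direction and call, 13 lost the call and 1 (Tek without the filter) gained it. The share of fallen genes over all tested genes moved too, in P2-CTCF-KO from 4.9% without mesoderm E9.1 to 13.9% without HPC D2.1. The cause of these moves was not tested beyond the smaller numbers of genes or libraries. HPC libraries held 900145 to 1302151 counts outside ribosomal and multi-locus entries, which limits genes of low level.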

Other observations

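A site of the same kind lay in an exon of Pou5f1, the pluripotency factor gene, 3.454 kb from its start. Pou5f1 had 0 reads in all 4 wild-type HPC libraries and 5 reads in 1 mesoderm library, so this site had an HPC ATAC-seq peak at a gene without detected reads at that stage. Its CTCF peak was 140 bp wide, the smallest width of that list, and its HPC peak was 69 bp wide.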
